A study of Mus musculus with 8 samples.

Results

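The expression of 10 genes that mark veins or let leukocytes adhere to the vessel wall was followed in lung endothelial cells (ECs) of neonatal mice. They were picked by symbol from the 54532 genes of the deposited count table. They are the venous genes Nr2f2 and Slc6a2, the selectins Selp and Sele, the adhesion molecules Vcam1, Icam1, Icam2 and Madcam1, the secreted glycoprotein gene Lrg1 and the sialomucin gene Cd34. The libraries came from wild-type C57BL/6J pups, 4 reared in normoxia (room air, 21% O2) and 4 in hyperoxia (80% O2), and lungs were taken on day 14 after exposure that began at birth. The exposure models bronchopulmonary dysplasia, a lung disease of premature infants. Lung cells were first cleared of cells that bound CD45 beads, which are leukocytes, and the cells that then bound CD31 beads were kept as ECs. Such an isolate is enriched, not pure. Neither the labels nor the methods say whether a library is 1 pup or a pool, so p-values measure only the spread between these libraries.

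In many tissues the small venules are where leukocytes leave the blood, and where they left it in these lungs was not tested. Selectins on the vessel wall catch passing leukocytes and let them roll, immunoglobulin-family molecules such as ICAM1 and VCAM1 then bind leukocyte integrins and hold the cells, and further junction molecules guide their passage through the wall. The transcription factor encoded by Nr2f2 (COUP-TFII) holds ECs in a venous fate by repressing Notch signalling, which drives the arterial fate. In resting ECs E-selectin, VCAM1 and much of ICAM1 are low, and inflammatory cytokines raise them through the transcription factor NF-kB, whereas ICAM2 and CD34 are present without such a signal.

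The DNA upstream of the start sites is shown for the pair of selectin genes and for the pair of genes that changed most, because cytokine-driven transcription of such genes is read from this stretch. RefSeq promoter entries (build GRCm38.p6) were found for 7 of the 10 genes, and not for Slc6a2, Vcam1 and Icam2. Up to 250 bases that end at or before the start site are printed 5′ to 3′. The Sele sequence is chr1:164047984-164048233 on the plus strand, that of Selp is chr1:164115014-164115263 on the plus strand, that of Icam1 is chr9:21015690-21015939 on the plus strand and that of Lrg1 is chr17:56122002-56122196 on the minus strand. Capitals mark matches to 3 patterns that were chosen after the sequences had been read and were searched on both strands: GGANNNTCC, a core of NF-kB sites, TGANTCA, the pattern bound by AP-1, and TATAAA, the TATA box.
Sele: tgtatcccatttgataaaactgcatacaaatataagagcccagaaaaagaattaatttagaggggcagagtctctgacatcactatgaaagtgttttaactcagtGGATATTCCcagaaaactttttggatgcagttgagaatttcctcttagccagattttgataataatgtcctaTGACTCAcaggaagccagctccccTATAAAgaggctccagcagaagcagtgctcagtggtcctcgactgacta
Selp: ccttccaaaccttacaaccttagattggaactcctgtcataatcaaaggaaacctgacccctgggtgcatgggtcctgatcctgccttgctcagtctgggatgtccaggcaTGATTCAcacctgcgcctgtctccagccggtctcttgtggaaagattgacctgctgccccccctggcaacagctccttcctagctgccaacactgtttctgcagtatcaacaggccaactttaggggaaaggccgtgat
Icam1: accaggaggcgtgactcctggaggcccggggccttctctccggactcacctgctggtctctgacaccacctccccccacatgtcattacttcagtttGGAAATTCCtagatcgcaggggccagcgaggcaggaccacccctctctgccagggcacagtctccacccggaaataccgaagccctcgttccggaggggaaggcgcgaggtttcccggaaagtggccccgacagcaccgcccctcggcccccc
Lrg1: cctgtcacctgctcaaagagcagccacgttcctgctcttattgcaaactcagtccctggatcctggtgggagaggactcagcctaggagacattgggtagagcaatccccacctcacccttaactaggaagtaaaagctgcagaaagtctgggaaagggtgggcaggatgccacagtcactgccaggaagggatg

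Sele held all 3 patterns, GGATATTCC at -145 to -137, TGACTCA at -73 to -67 and TATAAA at -49 to -44 from the start site. Icam1 held GGAAATTCC at -153 to -145, Selp held TGATTCA at -139 to -133, and Madcam1 held GGAAAGTCC at -70 to -62. No pattern was found in the windows of Nr2f2, Lrg1 and Cd34. Over 32841 RefSeq promoters cut at 250 bases, GGANNNTCC was found in 7.27%, TGANTCA in 6.75% and TATAAA in 12.4%, so single matches are common. The first and second patterns read alike on both strands, and no matches overlapped. A match describes letters and does not show that a factor binds. The stretch before Nr2f2 is not shown, because its far end touches an annotated exon.

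Of the 9 genes that passed the filter on low counts, 9 rose in hyperoxia at an adjusted p under 0.05 and 0 fell (edgeR's quasi-likelihood test, Benjamini-Hochberg adjustment over 15564 genes). Across all genes tested, 18.5% rose by the same rule. Icam1 and Lrg1 also rose at least 2-fold, which 5.62% of all genes did. In 7 of the 9 genes every hyperoxia library lay above every normoxia library, a pattern that 17.8% of all genes showed, while Nr2f2 and Sele had overlapping groups. The log2 fold change of hyperoxia relative to normoxia is written log2FC. Its median over the 9 genes was 0.73, against -0.004 over all genes tested. The genes were chosen with earlier results of these data known, so their counts and median are not those of a blind choice. Madcam1 was too rare to be tested. In such bulk RNA, more cells of a type and more RNA per cell cannot be told apart.

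**Figure D1:**
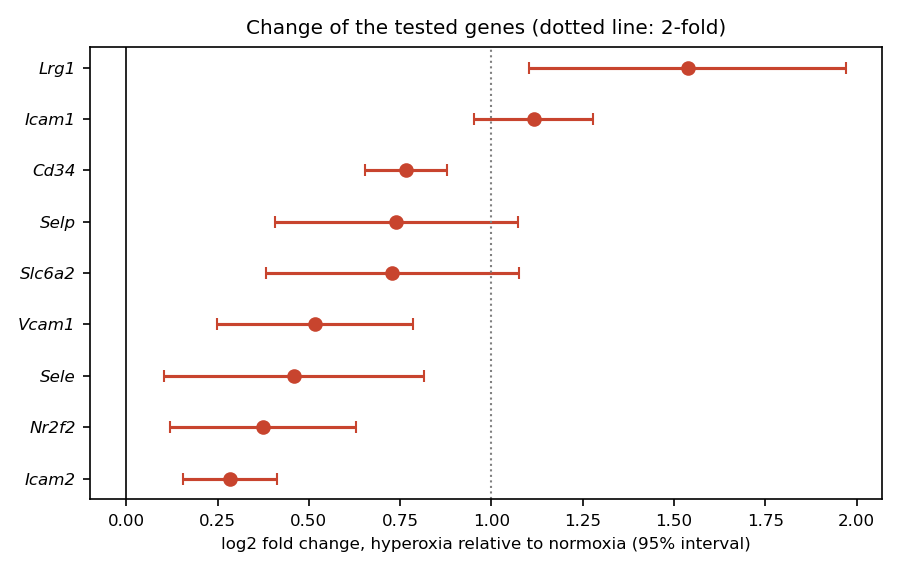
Log2 fold change of each tested gene, hyperoxia relative to normoxia, as points with 95% intervals from edgeR. All 9 points lie right of 0, from 0.28 for Icam2 to 1.54 for Lrg1, and the points of Icam1 and Lrg1 lie past the dotted 2-fold line.

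The libraries held 16098086 to 18300730 counts, and CPM below means the count of a gene scaled to a common library size (the CPM scale of edgeR) after TMM normalization. The isolate carried EC markers in both groups, with 8 pan-endothelial markers summing to 14265 to 15276 CPM in normoxia and 13949 to 14712 CPM in hyperoxia. Single markers went both ways, since Kdr, Cldn5 and Emcn rose, Tek (log2FC -0.79, adjusted p 6.35e-06), Erg and Tie1 fell, and Cdh5 and Pecam1 did not pass. Other markers moved with the exposure. The sum of 6 alveolar type 2 markers was 229 to 321 CPM in normoxia and 736 to 2225 CPM in hyperoxia, that of 5 alveolar type 1 markers was 70.8 to 86.6 and 136 to 369 CPM, that of 7 fibroblast markers was 62.4 to 109 and 92.7 to 238 CPM, and that of 6 mural cell markers was 17.7 to 35.5 and 33.7 to 74.7 CPM. Hyperoxia 3 had the lowest of these sums in its group. The sum of 7 lymphatic EC markers was also higher, 1249 to 1338 CPM against 1878 to 2133 CPM. Most of it was Lyve1, whose mean went from 954 to 1602 CPM. Prox1, Reln and Mmrn1 rose with overlapping groups, Flt4 and Pdpn rose without overlap, and Ccl21a was too rare to be tested. None of 6 leukocyte markers (sums of 90.1 to 228 and 112 to 223 CPM) and none of 4 tested neutrophil markers passed the test.

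Nr2f2 (ENSMUSG00000030551, GRCm38 chromosome 7, 70351944 to 70366735) encodes the transcription factor that keeps the venous fate. It stood at 28.5, 33.7, 28.4 and 22.7 CPM in normoxia 1 to 4 and at 31.6, 37.9, 41.1 and 36.2 CPM in hyperoxia 1 to 4. The groups met at their edges, since hyperoxia 1 lay below normoxia 2. The mean went from 28.3 ± 4.51 to 36.7 ± 3.95 CPM (SD, n = 4 each), a log2FC of 0.37 (95% interval 0.12 to 0.63, edgeR adjusted p 0.0267). This call was weak, because the adjusted p was 0.0522, 0.0518 and 0.0618 without normoxia 1, 3 or 4 and 0.0653 and 0.0681 without hyperoxia 2 or 3. COUP-TFII is also made by lymphatic ECs and fibroblasts. The lymphatic regulator Prox1, named after its values were seen, rose from 10.9 ± 2.02 to 16.6 ± 4.73 CPM (log2FC 0.60, adjusted p 0.044) and was lowest of its group in hyperoxia 1 (10.3 CPM), as Nr2f2 was. The part of these cells in the change of Nr2f2 was not tested. Exons of B130024G19Rik on the other strand cover 7.46% of the exon bases of Nr2f2, and that gene drew 139 counts in all against 4569.

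Slc6a2 (ENSMUSG00000055368, chromosome 8, 92960079 to 93001667) encodes the noradrenaline transporter, which clears noradrenaline from nerve endings and, in the lung, is made by ECs of veins. The counts gave 192, 179, 138 and 120.03 CPM in normoxia 1 to 4, and 219.7, 321, 272 and 230.3 CPM in hyperoxia 1 to 4. The highest normoxia library, normoxia 1, stayed below the lowest hyperoxia library, hyperoxia 1, and both groups were widely spread. The mean rose from 157 ± 34.1 to 261 ± 46.2 CPM, a log2FC of 0.73 (SE 0.157, adjusted p 0.00436). Th, which encodes the first enzyme of noradrenaline synthesis in sympathetic nerves, had 0 counts in all 8 libraries.

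Per gene length, Slc6a2 was far above Nr2f2. On the FPKM scale the ratio of their levels was 6.66 to 9.27 in normoxia and 8.73 to 11.6 in hyperoxia, so the ranges of this ratio overlapped. Among 8 other venous markers 7 were tested, 3 rose, 0 fell and 4 did not pass, with a median log2FC of 0.23. Nrp2, a receptor for class 3 semaphorins and VEGF-C, rose from 53.2 ± 4.41 to 91.1 ± 10.5 CPM (log2FC 0.78, adjusted p 7.63e-05). Vwf, von Willebrand factor, stood at 2071 ± 213 and 2428 ± 335 CPM (log2FC 0.23, adjusted p 0.107), and its adjusted p was 0.0108 without hyperoxia 1. Ephb4, the venous receptor for ephrin B2, had a log2FC of -0.17 (adjusted p 0.0867), with an adjusted p of 0.0355 without hyperoxia 3. Bst1 (log2FC 1.20) and Prss23 (0.50) were the other genes that rose, named here after their values were seen. Ackr1, the venular chemokine receptor, was almost absent, at 0.110 to 1.05 CPM.

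Genes of the arterial fate went the other way in part. Of 8 tested, 3 fell, 1 rose and 4 did not pass, and the median log2FC was -0.34. Of all 15564 genes tested, 5535 passed, and 51.9% of these rose. The list and its median also took in Nr2f1, a relative of Nr2f2 and not an arterial gene, which did not pass (-0.46, adjusted p 0.0519). The Notch target Hey1 fell from 274 ± 21.7 to 158 ± 10.98 CPM (log2FC -0.80, adjusted p 1.05e-05), and the related Hey2 fell with overlapping groups (-0.72, adjusted p 0.0269), both named after their values were seen. Efnb2, the arterial ligand ephrin B2, fell from 1329 ± 183 to 967 ± 35.0 CPM (log2FC -0.46, adjusted p 0.00189). Nrp1, the arterial partner of Nrp2, rose slightly (0.16, adjusted p 0.0176), and its adjusted p was 0.0548 without normoxia 1 and 0.0654 without hyperoxia 2. Notch1 had a log2FC of -0.23 (adjusted p 0.0936), with an adjusted p of 0.0329 without normoxia 1 and 0.0351 without normoxia 3.

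**Figure D2:**
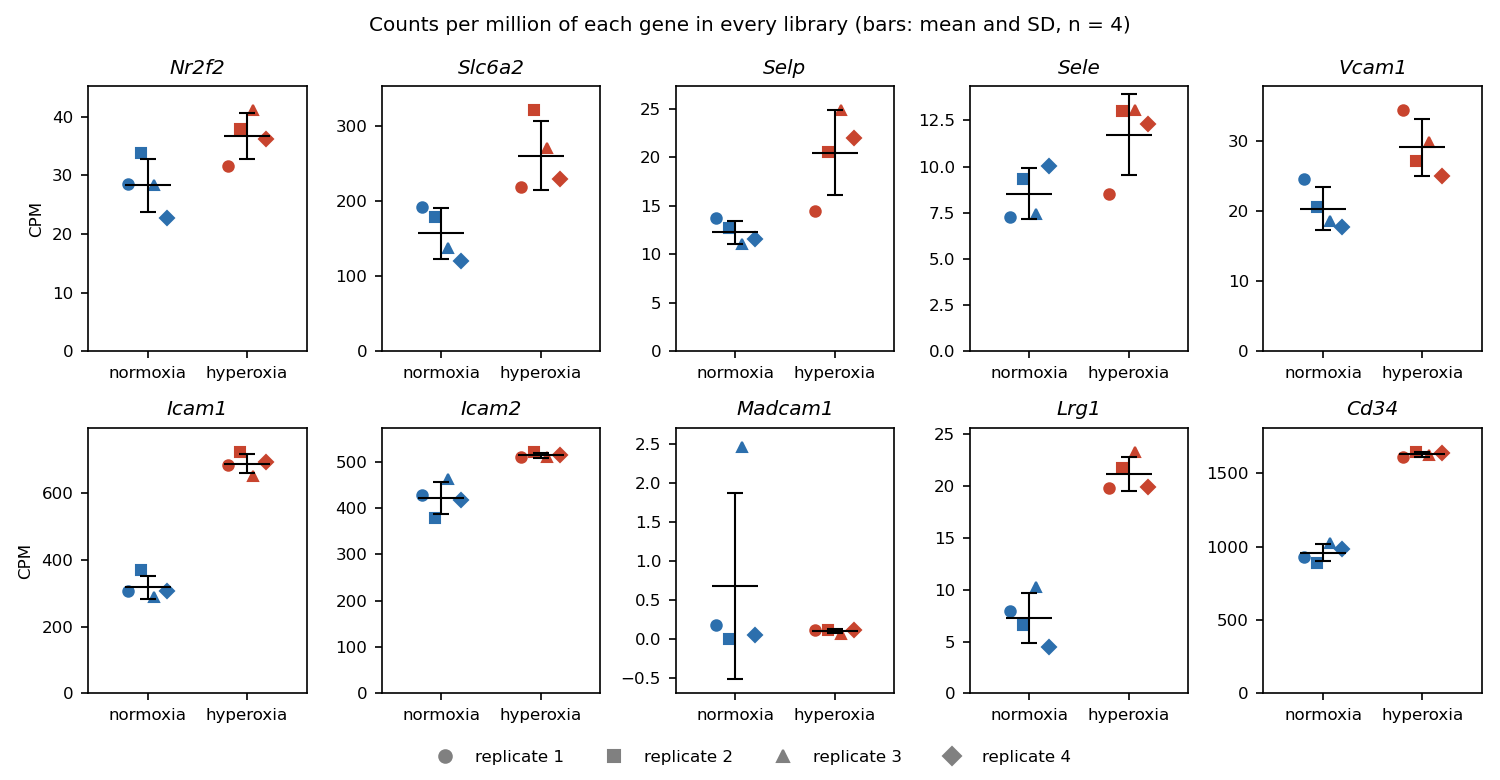
CPM of each gene (vertical axes from 0, except for Madcam1, whose SD bar reaches below it) in the 4 normoxia (blue) and 4 hyperoxia (red) libraries, with the mean and SD as bars and replicate numbers as marker shapes. Icam1, Lrg1 and Cd34 show wide gaps between the groups, Nr2f2 and Sele overlap, and the Madcam1 signal is that of normoxia 3.

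Selp (ENSMUSG00000026580, chromosome 1, 164115264 to 164150026) encodes P-selectin, which ECs store in granules and platelets carry too, and which catches rolling leukocytes. It stood at 13.7, 12.7, 11.02 and 11.6 CPM in normoxia 1 to 4, and at 14.4, 20.5, 24.8 and 22.02 CPM in hyperoxia 1 to 4. Normoxia was tight, whereas hyperoxia 1 lay just above the normoxia range and the other 3 hyperoxia libraries lay well above it. The mean rose from 12.3 ± 1.19 to 20.5 ± 4.39 CPM, a log2FC of 0.74 (SE 0.151, adjusted p 0.00316). Platelet markers summed to 21.8 to 30.5 CPM in normoxia and 27.5 to 40.3 CPM in hyperoxia, where 1 of 5 tested rose, Itga2b (log2FC 0.48, adjusted p 0.00711). Hyperoxia 3, with the most Selp, had the lowest platelet sum of its group. The part of platelets in the change of Selp was not tested. Exons of Gm16587 and Gm16548 on the other strand cover 4.21% and 9.93% of those of Selp, and these genes drew 44 and 45 counts against 2300 for Selp.

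Sele (ENSMUSG00000026582, chromosome 1, 164048234 to 164057677) encodes E-selectin, the selectin that ECs make anew on cytokine stimulation. It lies 57.586 kb before Selp on the same strand. The level was 7.29, 9.33, 7.44 and 10.1 CPM in normoxia 1 to 4, and 8.51, 13.0, 13.1 and 12.3 CPM in hyperoxia 1 to 4. Hyperoxia 1 lay inside the normoxia range and the other 3 hyperoxia libraries lay above it, and hyperoxia 1 was the lowest and hyperoxia 3 the highest of its group, as for Selp. The mean went from 8.53 ± 1.38 to 11.7 ± 2.17 CPM, a log2FC of 0.46 (95% interval 0.10 to 0.81, edgeR adjusted p 0.0473), at 119 to 230 counts a library. That call was the weakest of the 9. The adjusted p was 0.113, 0.0611 and 0.109 without normoxia 1, 2 or 3 and 0.121, 0.105 and 0.0987 without hyperoxia 2, 3 or 4, while without hyperoxia 1 the gene still passed. On the FPKM scale the ratio of Selp to Sele was 0.761 to 1.24 in normoxia and 1.04 to 1.26 in hyperoxia, so both selectins were at a like level and the ratio overlapped between groups.

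Genes that help to build the ligands of selectins did not move as 1 group. Of 9 tested, 3 rose, 2 fell and 4 did not pass (median log2FC 0.06). Chst2, a sulfotransferase that helps to make selectin ligands on vessels, rose from 38.2 ± 7.48 to 117 ± 10.6 CPM (log2FC 1.62, adjusted p 4.94e-06), and Gcnt1, a core 2 O-glycan branching enzyme named after its value was seen, rose by 0.97 (adjusted p 0.00211). The sialyltransferase St3gal6 fell from 149 ± 4.89 to 96.3 ± 6.11 CPM (log2FC -0.63, adjusted p 9.05e-06), and St3gal4, also named after its value was seen, fell too (-0.45, adjusted p 9.15e-05). Tpst2, whose product sulfates protein tyrosines and not carbohydrate, rose slightly (0.12, adjusted p 0.0469). That call was lost when any 1 of normoxia 1 to 4 and hyperoxia 2 to 4 was left out (adjusted p 0.0529 to 0.134).

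Vcam1 (ENSMUSG00000027962, chromosome 3, 116109949 to 116129688) encodes the ligand of the leukocyte integrin VLA-4. It stood at 24.6, 20.6, 18.5 and 17.7 CPM in normoxia 1 to 4, and at 34.4, 27.1, 29.8 and 25.02 CPM in hyperoxia 1 to 4. The groups came close, with hyperoxia 4 only just above normoxia 1, and hyperoxia 1 was here the highest library where for both selectins it was the lowest of its group. The mean rose from 20.35 ± 3.05 to 29.1 ± 4.04 CPM, a log2FC of 0.52 (SE 0.121, adjusted p 0.00702). Fibroblasts, mural cells and macrophages can make VCAM1 too. Hyperoxia 3, with the lowest fibroblast and mural sums of its group, had 29.8 CPM of Vcam1, the second highest value of its group. The part of such cells in the change of Vcam1 was not tested. Overlap with Gm43109 on the other strand covers 0.688% of its exon bases.

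Icam1 (ENSMUSG00000037405, chromosome 9, 21015985 to 21028817) encodes the ligand of the integrins LFA-1 and Mac-1, which arrests leukocytes and supports their passage. The gene stood at 306, 369, 288 and 308 CPM in normoxia 1 to 4, and at 684, 724, 654 and 694 CPM in hyperoxia 1 to 4. A wide gap separated the groups, and no hyperoxia library came near the normoxia range. The mean rose 2.17-fold (95% interval 1.94 to 2.42), from 318 ± 35.2 to 689 ± 28.9 CPM, with a log2FC of 1.12 (SE 0.0734) and an edgeR adjusted p of 1.85e-06. Over 17 alternative settings the log2FC ran from 1.07 to 1.19. Alveolar type 1 cells also make ICAM1. The sum of their markers was 136 CPM in hyperoxia 3 and 327 to 369 CPM in hyperoxia 1, 2 and 4. Icam1 was at 654 CPM in hyperoxia 3, the lowest value of its group. The part of these cells in the change of Icam1 was not tested. Exons of Gm47079 on the other strand cover 11.7% of those of Icam1, and it drew 537 counts in all against 70915. The GGAAATTCC in the Icam1 sequence printed above is the pattern that Sele holds with other inner letters, and the log2FC values of these genes were 1.12 and 0.46.

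Icam2 (ENSMUSG00000001029, chromosome 11, 106377656 to 106388075) encodes a ligand of LFA-1 that resting ECs carry all the time. Its values were 428, 378, 462 and 418 CPM in normoxia 1 to 4, and 511, 520.3, 509 and 513 CPM in hyperoxia 1 to 4. The 4 hyperoxia libraries were nearly level, and all lay above normoxia 3, the highest normoxia library. The mean rose from 422 ± 34.5 to 513 ± 4.99 CPM, a log2FC of 0.28 (SE 0.0579, adjusted p 0.00318), the smallest of the 9 changes. On the FPKM scale the level of Icam1 was 0.273 to 0.426 of that of Icam2 in normoxia and 0.561 to 0.608 in hyperoxia, without overlap.

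Cytoskeletal partners of ICAM1 and VCAM1 were also followed, in a list chosen with earlier results of these data known. Of 10 tested, 6 rose, 1 fell and 3 did not pass, with a median log2FC of 0.22, and 18.5% of all genes tested rose. Moesin (Msn), which links ICAM1 to actin, had a log2FC of 0.26 (adjusted p 0.000623), and filamin A (Flna) one of 0.52 (adjusted p 1.62e-05). Actn4, an actinin, did not pass (0.04, adjusted p 0.589). Named after their values were seen, Actn1 rose by 0.91 (adjusted p 1.66e-06) and ezrin (Ezr) by 0.80 (adjusted p 9.32e-06), and the exchange factor gene Arhgef26 fell (-0.37, adjusted p 0.00333).

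Junction and passage molecules were mixed. Of 13 tested, 4 rose, 1 fell and 8 did not pass (median log2FC 0.09). The highest in CPM, Cdh5 and Pecam1, had log2FC values of -0.03 (adjusted p 0.658) and -0.04 (adjusted p 0.558). Mcam rose from 1187 ± 80.8 to 1389 ± 116 CPM (0.23, adjusted p 0.0266), a call lost without normoxia 1, normoxia 3, hyperoxia 2 or hyperoxia 3 (adjusted p 0.0611 to 0.077). Named after their values were seen, the fractalkine gene Cx3cl1, which encodes a membrane-bound chemokine, rose by 0.58 (adjusted p 8.74e-05), and the scavenger receptor gene Stab1 rose by 0.57 (adjusted p 5.33e-06). Alcam rose most, by 2.96 (adjusted p 7.04e-05), from 3.31 to 4.44 CPM in normoxia to 39.2, 38.7, 12.1 and 34.1 CPM in hyperoxia 1 to 4. Hyperoxia 3 was low for Alcam as it was for alveolar type 1 and type 2 markers, and the part of those cells was not tested.

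On the leukocyte side, 12 counter-receptor genes were tested, of which 3 rose, 0 fell and 9 did not pass (median log2FC 0.10). The integrin chain Itgb1, which ECs also make, rose from 1616 ± 57.2 to 1999 ± 69.2 CPM (log2FC 0.31, adjusted p 0.000471). Itga4, its partner in VLA-4, rose by 0.48 with overlapping groups (adjusted p 0.031), and the myeloid integrin chain Itgax rose by 1.18 (adjusted p 0.00738), both named after their values were seen. Cells bound to CD45 beads had been removed before the ECs were collected, and Ptprc, the CD45 gene, still gave 25.04 to 60.03 CPM.

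Among 16 genes of cytokine receptors and the NF-kB pathway, 5 rose, 4 fell and 7 did not pass (median log2FC 0.03). The highest in CPM were Il4ra, a receptor chain for interleukins 4 and 13, which rose (0.29, adjusted p 0.00523), the gp130 gene Il6st, which fell (-0.26, adjusted p 0.00326), and Irf1, whose 4 hyperoxia libraries ran from 272 to 610.2 CPM (0.16, adjusted p 0.587). Named after their values were seen, Rela rose by 0.74 (adjusted p 1.81e-06) and the feedback inhibitor gene Tnfaip3 by 0.64 (adjusted p 0.000139). The subunit gene Nfkb1 fell (-0.43, adjusted p 2.51e-05), as did the inhibitor gene Nfkbia (-0.24, adjusted p 0.00948).

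**Figure D3:**
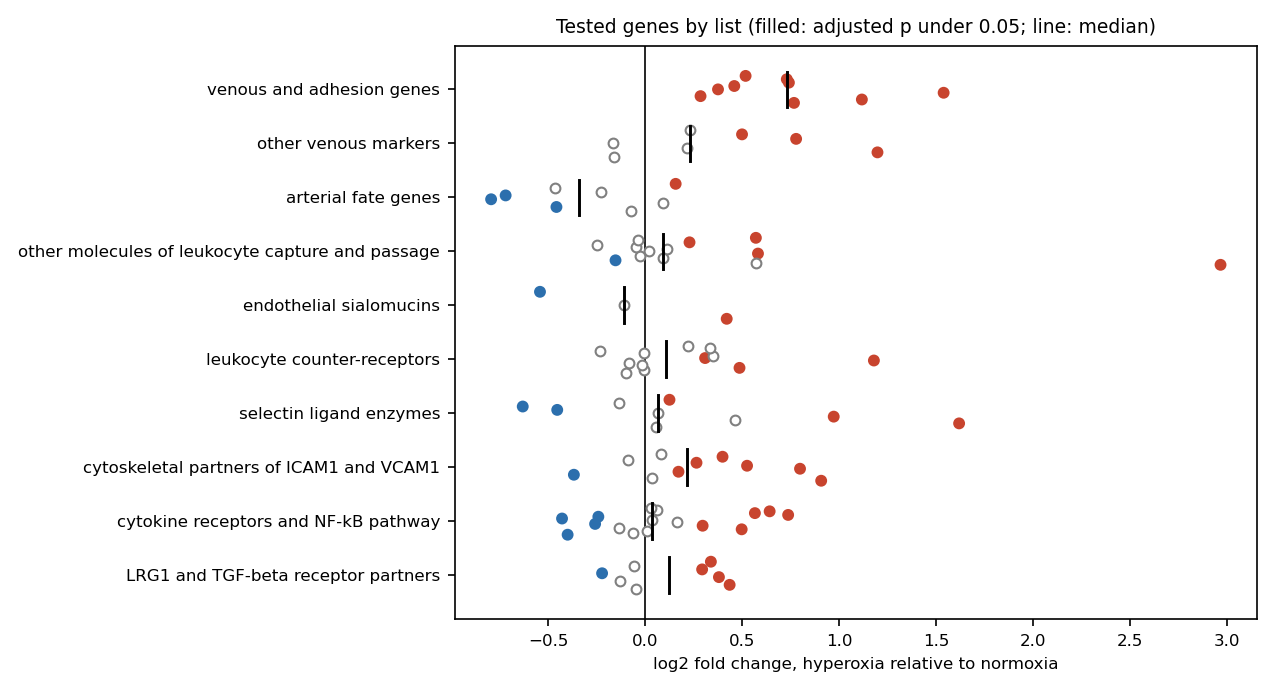
Log2 fold change, hyperoxia relative to normoxia, of every tested gene in the 10 lists, filled red or blue where the gene rose or fell at an adjusted p under 0.05 and open otherwise, with the list median as a line. The venous and adhesion genes have a median of 0.73, and the other lists have medians from -0.34 to 0.23. All lists were chosen with earlier results of these data known.

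Madcam1 (ENSMUSG00000020310, chromosome 10, 79664559 to 79668537) encodes the addressin of high endothelial venules, the vessels through which lymphocytes enter lymphoid tissue of mucosae. Its counts were 3, 0, 44 and 1 in normoxia 1 to 4, and 2, 2, 1 and 2 in hyperoxia 1 to 4. The signal was thus that of normoxia 3 and no comparison of the groups was made. Other genes of such venules went with it. Glycam1, which encodes a mucin-like glycoprotein of these venules, had 0, 3, 406 and 0 counts in normoxia 1 to 4, and at most 4 in a hyperoxia library. Chst4, a sulfotransferase of these venules, had 7 counts in normoxia 3 and 0 in each of the other 7 libraries, and Fut7, a fucosyltransferase for selectin ligands, had 26 counts there and 1 to 13 elsewhere. The leukocyte marker sum was 228 CPM in normoxia 3 and 90.1 to 154 CPM in the other normoxia libraries. It was 223 CPM in hyperoxia 1, where Madcam1 had 2 counts and Glycam1 had 1. What brought the venule signal into normoxia 3 was not tested. Without normoxia 3, the calls of Nr2f2 and Sele were lost, as given above, and the other 7 tested genes remained past the threshold.

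**Figure D4:**
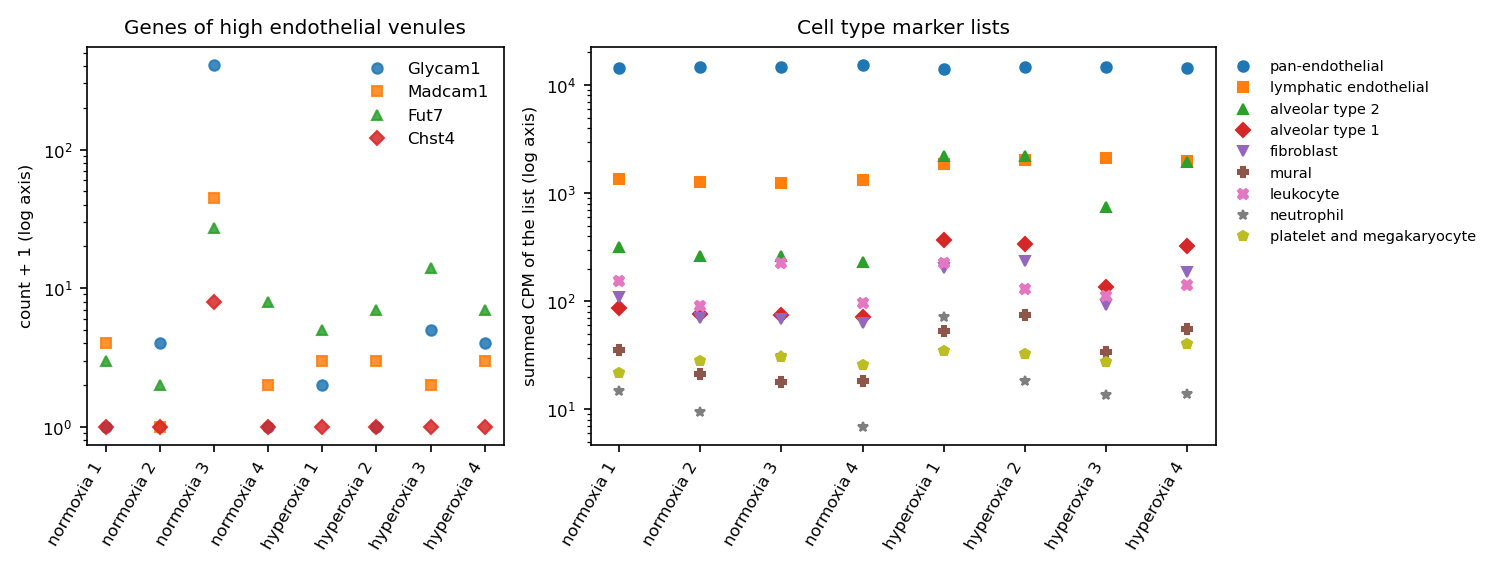
Counts of 4 genes of high endothelial venules (left, count + 1 on a log axis) and summed CPM of cell type marker lists (right, log axis) in each library. Normoxia 3 stands apart for Glycam1 (406 counts) and Madcam1 (44 counts), and alveolar type 2 sums run from 229 to 321 CPM in normoxia and from 736 to 2225 CPM in hyperoxia, with hyperoxia 3 lowest in its group.

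Lrg1 (ENSMUSG00000037095, chromosome 17, 56119678 to 56122001) encodes a secreted leucine-rich glycoprotein that ECs of venules make, that binds the TGF-beta coreceptor endoglin and that promotes angiogenesis. The gene stood at 7.90, 6.54, 10.2 and 4.47 CPM in normoxia 1 to 4, and at 19.8, 21.7, 23.2 and 19.9 CPM in hyperoxia 1 to 4. Every hyperoxia library lay far above normoxia 3, the highest normoxia library. The mean rose 2.90-fold (95% interval 2.15 to 3.92), from 7.29 ± 2.42 to 21.15 ± 1.67 CPM, with a log2FC of 1.54 (SE 0.196) and an edgeR adjusted p of 0.000168. This was the largest change of the 9, and it ran from 1.36 to 1.75 over the alternatives. Neutrophils hold LRG1 too. Their markers summed to 13.7 CPM in hyperoxia 3, the highest library for Lrg1, and to 71.1 CPM in hyperoxia 1, the lowest hyperoxia library. The part of neutrophils in the change of Lrg1 was not tested. Among 8 genes of LRG1 and TGF-beta receptor partners, 4 rose, 1 fell and 3 did not pass (median log2FC 0.12). Endoglin (Eng) rose from 1644 ± 17.1 to 2222 ± 40.9 CPM (0.43, adjusted p 1.52e-05) and Tgfbr2 from 304 ± 13.4 to 384 ± 9.15 CPM (0.34, adjusted p 0.000236), while Acvrl1, the ALK1 receptor gene, had a log2FC of -0.05 (adjusted p 0.404).

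Cd34 (ENSMUSG00000016494, chromosome 1, 194938819 to 194961279) encodes a sialomucin that covers most capillary ECs and that, when sulfated in high endothelial venules, carries ligands for lymphocytes. It stood at 932, 891, 1024 and 985 CPM in normoxia 1 to 4, and at 1611, 1645, 1622 and 1640.3 CPM in hyperoxia 1 to 4. The hyperoxia libraries lay within a narrow band far above all normoxia libraries. The mean rose 1.70-fold (95% interval 1.57 to 1.84), from 958 ± 58.6 to 1629.6 ± 15.8 CPM, with a log2FC of 0.77 (SE 0.0503) and an edgeR adjusted p of 1.84e-06. Fibroblasts can carry CD34. Hyperoxia 3 had 1622 CPM of Cd34, and its fibroblast markers summed to 92.7 CPM, against 188 to 238 CPM in hyperoxia 1, 2 and 4. The part of fibroblasts in the change of Cd34 was not tested. Exons of Gm16897 on the other strand cover 2.03% of those of Cd34, and it drew 1018 counts in all against 182211. Of 3 other sialomucins tested, 1 rose, 1 fell and 1 did not pass. Emcn rose from 262 ± 16.4 to 350.1 ± 11.6 CPM (0.42, adjusted p 0.000159), Podxl2 fell from 17.99 ± 1.47 to 12.3 ± 1.15 CPM (-0.54, adjusted p 0.00129), and Podxl had a log2FC of -0.11 (adjusted p 0.102).

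The 9 tested genes varied unequally between libraries of the same group. Within hyperoxia the coefficient of variation of the CPM was 0.969% for Cd34, 0.973% for Icam2 and 4.20% for Icam1, against 21.5% for Selp, 18.5% for Sele and 17.7% for Slc6a2. The libraries of hyperoxia were thus nearly level for Cd34 and Icam2 and spread for Slc6a2 and both selectins. Hyperoxia 1 was the lowest hyperoxia library for 6 of the 9 genes (Nr2f2, Slc6a2, Selp, Sele, Lrg1 and Cd34) and the highest for Vcam1. Hyperoxia 3, which had the fewest alveolar and fibroblast markers of its group, was the highest for Nr2f2, Selp, Sele and Lrg1 and the lowest for Icam1 and Icam2.

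Levels of different genes are compared here only as FPKM, which divides by gene length. In normoxia the order of mean FPKM was Icam2 (219.6 ± 18.7), Cd34 (130.4 ± 8.31), Icam1 (72.3 ± 7.69), Slc6a2 (24.8 ± 5.35), Lrg1 (5.14 ± 1.71), Nr2f2 (3.26 ± 0.508), Sele (2.90 ± 0.464), Selp (2.75 ± 0.268), Vcam1 (2.28 ± 0.344) and Madcam1. From Lrg1 down to Vcam1 each gene overlapped its neighbour. In hyperoxia the first 5 places were held in the same order, by Icam2 (268 ± 3.03 FPKM), Cd34 (222 ± 2.55), Icam1 (157 ± 6.66), Slc6a2 (41.3 ± 7.44) and Lrg1 (14.9 ± 1.22), and none of these overlapped its neighbour. Selp (4.61 ± 0.998 FPKM) then stood before Nr2f2, Sele and Vcam1, whose neighbours in the order overlapped. Lrg1 thus overlapped Nr2f2 in normoxia and stood clear of all lower genes in hyperoxia.

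**Figure D5:**
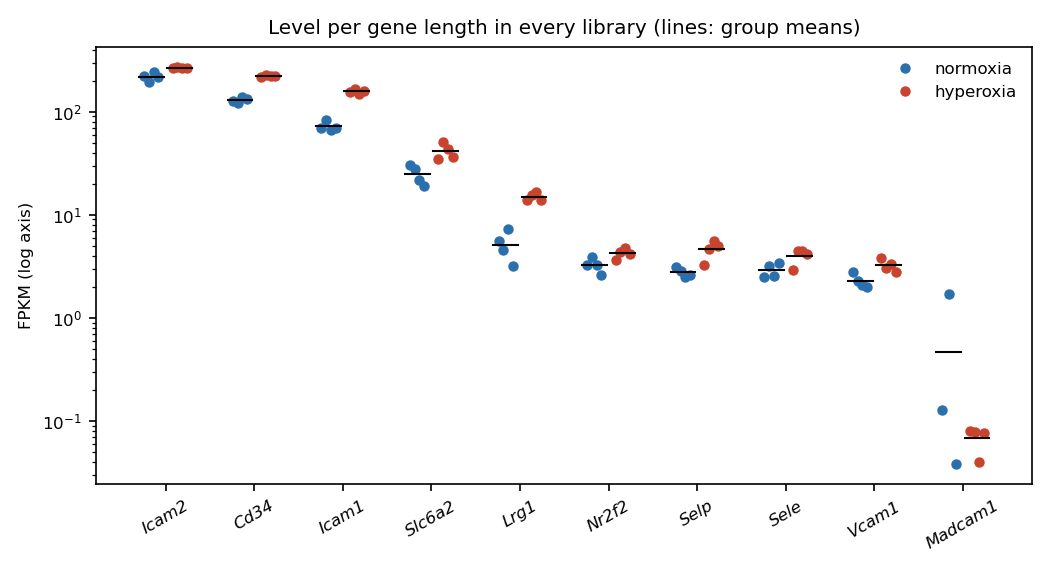
FPKM (log axis) of the 10 genes in the normoxia (blue) and hyperoxia (red) libraries, ordered by mean level, with group means as lines. Icam2, Cd34, Icam1 and Slc6a2 stand apart from the rest, Lrg1 leaves the lower genes in hyperoxia, and the Madcam1 library listed at 0 is not drawn.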

How the data were processed

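Bulk RNA-seq of CD31 bead-bound lung cells was sequenced in paired-end mode (Illumina NovaSeq). The authors deposited whole-number gene counts and FPKM (fragments per kilobase and per unit of library size) for 54532 genes and 8 libraries. HISAT2 2.0.5, featureCounts 1.5.0-p3 and mm10 are named in the submitters' processing notes, and the use of strand and of reads with several matches is not given in the sources used here. Groups follow the treatment labels. The members and gene lists were chosen with earlier results of these data known, and the lists come from general knowledge.

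Counts were normalized by TMM and genes were filtered by filterByExpr, which kept 15564 genes with at least 99.8% of each library's counts. edgeR 4.0.16 (R 4.3.3) fitted a quasi-likelihood model with the group as the only term, and p-values were adjusted by Benjamini-Hochberg over all genes tested. A call needed an adjusted p under 0.05, and 2-fold where stated. The study had used DESeq2 on counts. DESeq2 1.42.0, limma 3.58.1 (voom, and log2(FPKM + 1) or log2(FPKM + 0.1)), other normalizations, no filter, a replicate block and leaving out each library were tried, 17 settings in all. Fold changes on the FPKM settings include the pseudocount. Totals of 16098086 to 18300730 counts set the depth, and counting error is part of the spread between libraries. Names were drawn from all 10 genes, the 3 tested genes of each context list and the 2 of each cell type list with the highest mean CPM, and genes whose exons overlap a member. Not all of these are named, and other genes were named after their values were seen. Tested on simulated counts of the 15564 genes, the fit recovered 173 of 200 changed genes with 9 false calls. In the data 5535 genes passed, and recovery with so many changed genes was not tested. Recovery of changes below 2-fold was not tested separately. Coordinates are those of the files, which matched GENCODE M21 (GRCm38) for 10 of 10 genes.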

Additional observations from a re-analysis of the deposited data

Results flagged for a closer look

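In 108 groups of 4 libraries (the named genes in each exposure), 11 held a library whose gap to the nearest of the others passed Dixon's 95% limit. Chance gives about 5 in 100 such groups, and groups of 4 that share libraries are not independent. Sele in hyperoxia 1 was at 8.51 CPM, whereas hyperoxia 2 to 4 had 12.3 to 13.1 CPM. Emcn in hyperoxia 1 was at 333 CPM, against 355 to 357 CPM. The neutrophil genes S100a8 and S100a9 were high in the same library, at 27.0 CPM (others 5.21 to 7.14) and 36.0 CPM (others 6.01 to 8.89).

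Madcam1 in normoxia 3 was at 2.46 CPM, against 0 to 0.184 CPM in normoxia 1, 2 and 4, and in hyperoxia 3 it was at 0.0572 CPM, 1 count, against 0.111 to 0.114 CPM, 2 counts. Normoxia 3 also stood apart for S100a8 (12.2 CPM, others 3.09 to 4.41) and the platelet factor gene Pf4 (7.33 CPM, others 4.20 to 4.29). Normoxia 1 stood apart for Podxl (1391 CPM, others 1273 to 1292), the collagen gene Col1a2 (59.5 CPM, others 33.2 to 36.3) and the smooth muscle myosin gene Myh11 (7.10 CPM, others 4.64 to 4.95). No explanation of these values was tested.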

How the results depend on the processing

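All 9 tested genes kept their direction in the 17 settings. Of their 153 values 136 kept their side of the threshold and 17 lost it, 6 for Nr2f2 (adjusted p up to 0.0971) and 11 for Sele (up to 0.131). Both lost it on unfiltered log2(FPKM + 1), and Sele also under upper quartile normalization, voom and the other FPKM settings. The number of the 9 genes past the threshold ran from 7 to 9, and 2 passed 2-fold in every setting. Neither the labels nor the methods say whether libraries with the same replicate number share a litter or batch. The same-number correlations were 0.102, 0.0438, -0.149 and -0.200, which cannot settle this. With the replicate block 9 of the genes and 4792 of all genes passed, against 5535 without it. Of 748 values of 44 other named genes, 680 stayed on their side, 40 became weaker, 7 stronger and 21 changed sign, the last all in genes that did not pass. These were Ptprc, at 0.00585 with no filter, 0.0370 under voom, 0.0163 on log2(FPKM + 1) with and without filter, 0.0345 on log2(FPKM + 0.1), 0.0409 with the replicate block and -0.257 to 0.296 with 1 library left out, Coro1a, at -0.00396 under upper quartile normalization and -0.202 to 0.342 with 1 left out, Glg1, at 0.000956 with no filter and -0.0399 to 0.0209 with 1 left out, Irf1, at -0.0875 to 0.319, and S100a9, at -0.0206 to 1.58. The cause was not tested. Madcam1 had too few counts for any comparison. Lrg1 had the widest standard error of the tested genes (0.196) and Sele the highest adjusted p.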
